A study of Homo sapiens with 4 samples.

Results

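The mRNA decay and surveillance machinery was followed in SH-SY5Y cells, a human neuroblastoma line, after treatment with sodium nitroprusside (SNP), a nitric oxide donor. The genes are 52 named members of the machinery, found by their symbols among the 58243 genes listed in each count table: 11 genes of decapping and 5'-3' decay, 16 of deadenylation, 9 of nonsense-mediated decay, 2 of no-go decay and 14 of the exosome and SKI complexes. RNA sequencing gave 4 libraries: control a and control b, with no agent, and SNP a and SNP b, which the labels also call an oxidized state. The cells came from ATCC, and the treatment text speaks of cells differentiated with retinoic acid, shared by both groups as far as the labels say, that received SNP at several doses for 8 h. The dose of the sequenced cells is not given, the RNA of the SNP cells is described as oxidized without saying whether oxidized molecules were enriched, and nothing says that a and b were separate cultures, so p-values measure only the spread between these libraries.

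The count totals were 6538701 and 5613144 for control and 8056550 and 7648309 for SNP, so a floor of 3 counts lay between 0.372 and 0.534 CPM (counts scaled to a library of 1000000). Of 10 markers of noradrenergic neuroblastoma cells, 9 were counted, among them the transcription factor genes HAND2 and GATA3, whereas TH, which encodes tyrosine hydroxylase, was at 0 counts in all 4 libraries. Of the 9 that were tested, 3 were higher and 5 lower in SNP, and the summed level of the list was 2764 and 2835 CPM in control against 2191 and 2359 CPM in SNP. Of 7 markers of mesenchymal or substrate-adherent cells, 5 could be tested, and COL3A1 alone was higher and none lower. PRRX1 had at most 2 counts and COL1A1 at most 6 in any library. The others were counted, TWIST1 at 137 to 156 CPM, FN1 at 28.9 to 42.9, SNAI2 at 6.35 to 13.5 and WWTR1 at 2.16 to 4.15 CPM. The summed level ran from 232.9 to 245.7 CPM in control and from 247.1 to 263.1 CPM in SNP. The part of these shifts in the results below was not tested. The share of counts on the mitochondrial chromosome was 4.99% and 4.43% in control and 2.99% and 2.72% in SNP. In bulk RNA, fewer cells that express a gene and less RNA per cell cannot be told apart.

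Most eukaryotic mRNAs are destroyed by a shared route. The PAN2-PAN3 and CCR4-NOT complexes shorten the poly(A) tail, after which the cap is removed by DCP2 with its activators and the body is digested from the 5' end by XRN1, or the RNA is degraded from the 3' end by the exosome with the SKI complex. Surveillance pathways feed aberrant mRNAs into this route: in nonsense-mediated decay (NMD) the UPF and SMG proteins recognise mRNAs whose translation stops too early, and in no-go decay PELO and HBS1L release ribosomes that have stalled. Damaged bases, among them oxidized guanine, can stall ribosomes on an mRNA.

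Under SNP members of the machinery changed in both directions, as did genes in general. All 4 UPF genes of NMD were higher, as were the exosome nuclease gene DIS3, the exosome cap gene EXOSC3, the SKI scaffold gene TTC37, the deadenylase gene CNOT6, TOB1, SMG6, EDC3 and XRN2. The CCR4-NOT scaffold gene CNOT1, its module gene CNOT9, the second CCR4-type deadenylase gene CNOT6L and TOB2 were lower. All 52 members passed the filter on low counts, with 51 to 6004 counts per library, and 16 of them (30.8%) passed edgeR's quasi-likelihood test at a Benjamini-Hochberg adjusted p under 0.05 over 14759 genes, 12 higher (23.1%) and 4 lower (7.69%). Among all genes tested 26.2% passed, 13.6% higher and 12.6% lower. The median log2 fold change of SNP over control was 0.03 over the members and -0.004 over all genes, and the members ran from -0.65 to 1.08. In 32 of the 52 members the control and SNP values did not overlap, against 64.0% of all genes. The shares of members that passed and that did not overlap thus lay near those of all genes. Leaving out any 1 library, which left 1 library in a group, changed which members and which of all genes passed. The median log2 fold change of the members was then 0.077 without control a, 0.034 without control b, 0.025 without SNP a and 0.068 without SNP b. Over all genes it was 0.001, 0.002, -0.008 and -0.01 in the same order. The members together held 0.576% and 0.567% of the counts in control and 0.604% in each SNP library.

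**Figure D1:**
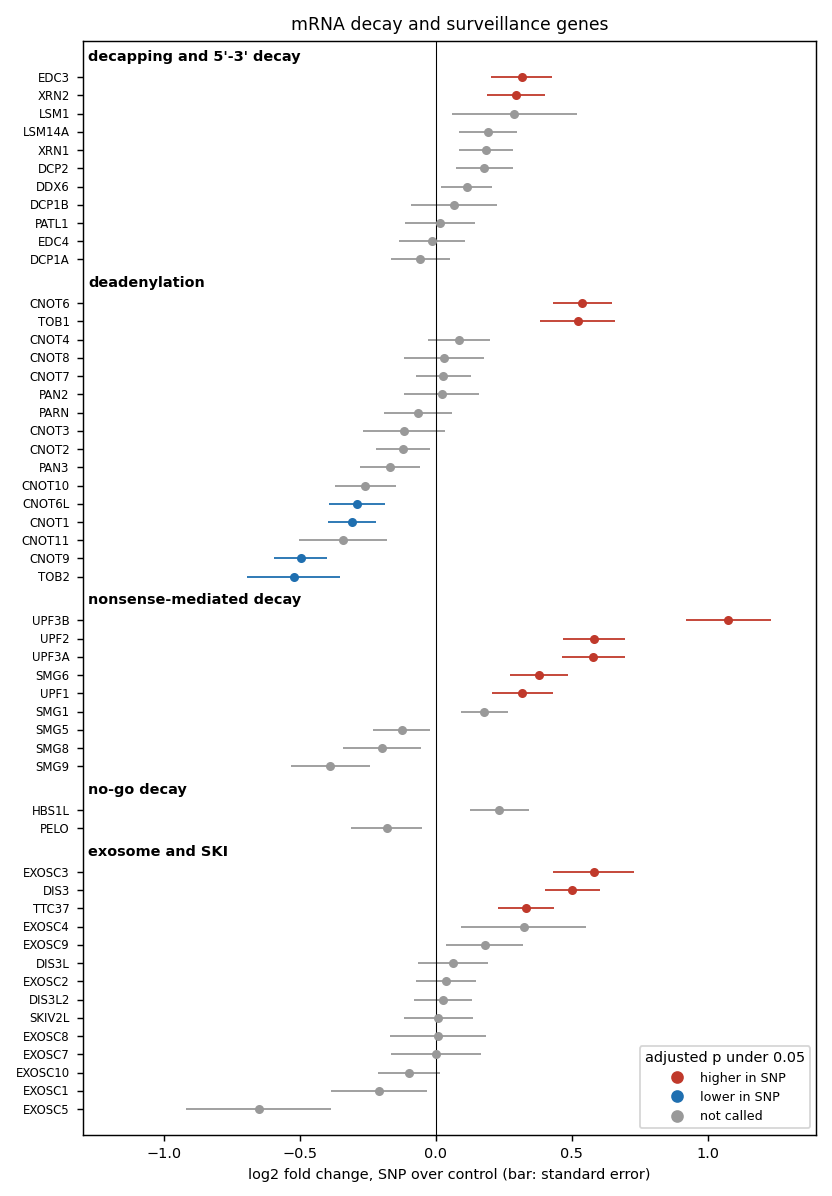
Log2 fold change of SNP over control (x axis) of each of the 52 members, grouped by role, with the standard error from edgeR as a bar; red and blue points passed the test upward and downward, grey points did not. UPF3B stands farthest right at 1.08, the other UPF genes lie between 0.32 and 0.58, and EXOSC5 stands farthest left at -0.65 without passing.

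The UPF genes rose together. UPF1 is the RNA helicase at the centre of NMD, UPF2 bridges UPF1 to the UPF3 proteins, and UPF3A and UPF3B are paralogues that link the reaction to the exon junction complex. The promoters of these 4 genes, picked because all 4 passed upward, are given here as RefSeq gives them for GRCh38.p14. Each has 300 bases in the direction of transcription with the start site after base 250. With the offsets for length and base composition described below, none of the 4 passed. A part of promoter elements in the rise was not tested. Capitals mark a CCAAT box (CCAAT), a GC box (GGGCGG) or an ETS site (CCGGAAG), on either strand. The stretches are chr19:18831709-18832008 on the plus strand for UPF1, chr10:12043121-12043420 on the minus strand for UPF2, chr13:114281351-114281650 on the plus strand for UPF3A and chrX:119852914-119853213 on the minus strand for UPF3B.
UPF1: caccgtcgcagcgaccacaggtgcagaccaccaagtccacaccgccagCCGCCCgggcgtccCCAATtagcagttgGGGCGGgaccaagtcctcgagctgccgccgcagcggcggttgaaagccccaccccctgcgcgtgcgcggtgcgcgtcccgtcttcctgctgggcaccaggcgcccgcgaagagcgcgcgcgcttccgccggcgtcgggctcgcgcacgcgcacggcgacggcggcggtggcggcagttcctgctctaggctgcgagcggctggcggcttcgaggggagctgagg
UPF2: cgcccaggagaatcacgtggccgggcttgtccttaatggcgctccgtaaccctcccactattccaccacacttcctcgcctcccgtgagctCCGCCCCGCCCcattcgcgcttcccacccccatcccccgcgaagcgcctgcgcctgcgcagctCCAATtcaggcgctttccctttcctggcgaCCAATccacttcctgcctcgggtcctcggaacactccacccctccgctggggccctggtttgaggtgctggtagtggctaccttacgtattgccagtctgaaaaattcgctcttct
UPF3A: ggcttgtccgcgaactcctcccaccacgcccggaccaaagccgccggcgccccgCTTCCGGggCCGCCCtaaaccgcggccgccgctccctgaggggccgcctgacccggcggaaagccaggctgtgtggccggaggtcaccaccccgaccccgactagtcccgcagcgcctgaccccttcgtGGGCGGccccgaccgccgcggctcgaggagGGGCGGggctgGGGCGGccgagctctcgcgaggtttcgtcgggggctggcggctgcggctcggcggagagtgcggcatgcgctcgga
UPF3B: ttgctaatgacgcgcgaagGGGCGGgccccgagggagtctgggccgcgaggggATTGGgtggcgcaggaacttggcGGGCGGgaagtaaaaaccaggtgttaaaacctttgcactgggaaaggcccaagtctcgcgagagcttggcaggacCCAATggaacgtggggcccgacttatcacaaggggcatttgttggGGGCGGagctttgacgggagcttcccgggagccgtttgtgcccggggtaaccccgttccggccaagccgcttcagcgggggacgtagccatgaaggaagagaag
The UPF1 stretch holds 1 CCAAT box and 2 GC boxes. That of UPF2 holds 2 CCAAT boxes and 2 GC boxes that overlap each other by 1 base. That of UPF3A holds 4 GC boxes and 1 ETS site and no CCAAT box, and that of UPF3B holds 2 CCAAT boxes and 3 GC boxes. A GC box was the 1 element of the 3 present in all 4 stretches. Of the 52 members, 45 matched a RefSeq promoter, and 33 of these (73.3%) held a GC box, against 45.0% of 35116 starts in the table. For each member only the start nearest to its annotated gene start was read. The shares over starts count every listed start, several for some genes, so for each motif here the 2 shares are not like for like. For the CCAAT box the shares were 33.3% of members and 34.6% of all starts, and for the ETS site 9 of 45 members and 10.3% of starts. The other motifs searched, on both strands, were the E-box CACGTG (11.1% and 7.26%), the TATA box TATAAA (2.22% and 11.5%), the core of the YY1 site, AAGATGGC (13.3% and 2.89%), and the core of the cyclic AMP response element, TGACGTCA (2.22% and 1.85%). The GC box was held by 8 of the 12 members that rose. Of the 4 that fell, CNOT6L, CNOT9 and TOB2 held it, and CNOT1 had no matched promoter. A match is a description of letters and not evidence of a bound site.

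UPF3B (ENSG00000125351, GRCh38 chrX:119805311-119852998, minus strand) had 20.7 and 18.1 CPM in control and 41.4 and 40.6 CPM in SNP. Both SNP values lay well above both control values, and the log2 fold change was 1.08 (SE 0.158, 2.11-fold, edgeR adjusted p = 4.3e-05), the largest among the members. Its paralogue UPF3A (ENSG00000169062, chr13:114281584-114305817, plus strand) had 59.4 and 56.6 CPM in control and 85.6 and 87.9 CPM in SNP. The groups did not overlap, and the log2 fold change was 0.58 (SE 0.116, edgeR adjusted p = 0.00088). Both paralogues therefore rose. Within each library, the ratio of UPF3B to UPF3A CPM was 0.348 and 0.32 in control and 0.484 and 0.462 in SNP, without overlap; the difference between their changes was not tested. UPF2 (ENSG00000151461, chr10:11920022-12043170, minus strand) had 92.1 and 76.0 CPM in control and 123 and 129 CPM in SNP. The SNP libraries were both higher, by 0.58 on the log2 scale (SE 0.115, edgeR adjusted p = 0.0008). UPF1 (ENSG00000005007, chr19:18831938-18868236, plus strand) had 84.5 and 99.8 CPM in control and 112 and 118 CPM in SNP. Here the control libraries lay farther apart and the rise was smaller, 0.32 on the log2 scale (SE 0.113, edgeR adjusted p = 0.0426). Summed over the 4 genes, the level was 256.6 and 250.5 CPM in control and 361.4 and 375.5 CPM in SNP. The calls of UPF2, UPF3A and UPF3B held without any 1 library, whereas that of UPF1 was lost without control a (adjusted p = 0.456), without control b (0.0536) and without SNP b (0.0861). With offsets that remove each library's relation to gene length, GC content and the ratio of guanine to cytosine, none of the 4 UPF genes passed, and their log2 fold changes were 0.20, 0.14, 0.02 and 0.38 for UPF1, UPF2, UPF3A and UPF3B (adjusted p = 0.139, 0.386, 0.923 and 0.0875).

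Of the 5 SMG genes 1 rose. SMG6, the endonuclease that cuts NMD targets near the premature stop, passed. SMG6 (ENSG00000070366, chr17:2059839-2303771, minus strand) had 127 and 130 CPM in control and 154 and 179 CPM in SNP, with no overlap. The log2 fold change was 0.38 (SE 0.107, edgeR adjusted p = 0.0117), and it was 0.50 (adjusted p = 0.00093) with the guanine-over-cytosine offsets. SMG6 shares 2419 exonic bases with HIC1 on the other strand, and the use of strand in the counting is not given in the sources used here. SMG9, a regulatory partner of the SMG1 kinase, had 44.0 and 39.6 CPM in control and 30.3 and 33.6 CPM in SNP. Its values did not overlap between groups, but the log2 fold change of -0.39 (SE 0.145) did not pass (edgeR adjusted p = 0.0522). SMG8, the partner of SMG9, had 42.9 and 38.2 CPM in control and 36.3 and 34.5 CPM in SNP, a log2 fold change of -0.20 that did not pass (edgeR adjusted p = 0.33). SMG1, the kinase that phosphorylates UPF1, was at 0.18 (adjusted p = 0.137), and SMG5, which binds phosphorylated UPF1, at -0.12 (adjusted p = 0.412); neither passed. SMG1 has 7 annotated pseudogenes with 6995 to 10017 counts per library in sum, 1.6 to 1.93 times those of SMG1 itself, so the division of reads between SMG1 and its copies is uncertain. The SMG6 call was lost without control a (adjusted p = 0.0987), control b (0.0673) or SNP b (0.0674). Of the 9 NMD members 5 (55.6%) rose and none fell, against 13.6% of all genes higher and 12.6% lower, and 3 rose without control a or without control b. Without SNP b, 3 rose and SMG9 was lower, and with the guanine-over-cytosine offsets SMG6 alone passed.

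The deadenylation genes moved in both directions, and it was here that 4 of the 4 falling members lay. Of the 16 members, 2 rose (12.5%) and 4 fell (25%), against 13.6% and 12.6% of all genes, with a median log2 fold change of -0.12. Within the CCR4-NOT complex of 11 members, 1 rose and 3 fell. CNOT1 (ENSG00000125107, chr16:58519951-58629886, minus strand), the large scaffold on which the complex is built and the most abundant member per length in control, had 512 and 511 CPM in control and 412 and 415 CPM in SNP. The libraries of each group lay close together, and the fall was 0.808-fold (log2 fold change -0.31, SE 0.0879, edgeR adjusted p = 0.0127). CNOT9 (ENSG00000144580, chr2:218568580-218597080, plus strand), a scaffold module that contacts adaptor proteins, had 235 and 247 CPM in control and 166 and 175 CPM in SNP. The log2 fold change was -0.50 (SE 0.0974, edgeR adjusted p = 0.00073), it lay between -0.53 and -0.46 whichever library was left out, and it passed in each of the 16 alternative settings. CNOT10 and CNOT11, which bind the amino-terminal part of CNOT1, were at -0.26 (edgeR adjusted p = 0.0937) and -0.34 (0.124). CNOT10 had 98.2 and 101 CPM in control and 88.1 and 77.9 CPM in SNP, and CNOT11 had 30.8 and 29.3 CPM in control and 24.9 and 22.6 CPM in SNP. In both the groups did not overlap, but neither passed the test. CNOT2 and CNOT3, which form the NOT module, were at -0.12 each, and CNOT4, a ubiquitin ligase, was at 0.09, with no call. The CNOT1 call was lost without control a (adjusted p = 0.0813) or control b (0.0758), while that of CNOT9 held throughout. Over the 16 deadenylation members, 1 passed without control b, 3 without control a and 5 without SNP a.

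Of the 2 pairs of catalytic paralogues in CCR4-NOT, CNOT6 and CNOT6L went in opposite directions. CNOT6 and CNOT6L encode alternative deadenylases of the CCR4 type, of which a complex carries 1 at a time. CNOT6 (ENSG00000113300, chr5:180494412-180578405, plus strand) had 141 and 116 CPM in control and 182 and 193 CPM in SNP. It rose by 0.54 on the log2 scale (SE 0.109, edgeR adjusted p = 0.00099). CNOT6L (ENSG00000138767, chr4:77713387-77819615, minus strand) had 140 and 139 CPM in control and 114 and 115 CPM in SNP. It fell by 0.29 on the log2 scale (SE 0.103, edgeR adjusted p = 0.0409). The ratio of CNOT6 to CNOT6L CPM within a library was 1.0 and 0.839 in control and 1.6 and 1.68 in SNP, so that the SNP libraries held more CNOT6 than CNOT6L reads. Per length, CNOT6 had 91.9 TPM (the deposited measure per length) in control and 145 TPM in SNP, and CNOT6L 70.1 TPM and 62.3 TPM. CNOT7 and CNOT8, the alternative deadenylases of the CAF1 type, did not pass: CNOT7 was at 0.03 (SE 0.102, edgeR adjusted p = 0.876) and CNOT8 at 0.03 (SE 0.147, edgeR adjusted p = 0.912). The ratio of CNOT7 to CNOT8 CPM was 3.24 and 3.28 in control and 2.91 and 3.75 in SNP, so that the groups overlapped. The CNOT6 call was lost without control b (adjusted p = 0.0503), and that of CNOT6L without control a (0.232), control b (0.196) or SNP a (0.0739). With the guanine-over-cytosine offsets CNOT6 was at 0.20 and did not pass (adjusted p = 0.186), whereas CNOT6L was at -0.46 (0.00212).

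TOB1 and TOB2 diverged likewise. They encode antiproliferative adaptors that bring CCR4-NOT to the poly(A)-binding protein on mRNA. TOB1 (ENSG00000141232, chr17:50862223-50867978, minus strand) had 40.6 and 35.5 CPM in control and 58.4 and 51.0 CPM in SNP, a log2 fold change of 0.52 (SE 0.137, edgeR adjusted p = 0.00751). TOB2 (ENSG00000183864, chr22:41433492-41447023, minus strand) had 26.2 and 25.7 CPM in control and 17.6 and 18.5 CPM in SNP, a log2 fold change of -0.52 (SE 0.171, edgeR adjusted p = 0.0278). The groups overlapped in neither gene, and the ratio of TOB1 to TOB2 CPM was 1.55 and 1.38 in control and 3.31 and 2.75 in SNP. TOB1 shares 281 exonic bases with TOB1-AS1 on the other strand. The TOB1 call was lost without control b (adjusted p = 0.116), and that of TOB2 without control a (0.151), control b (0.117) or SNP a (0.078). With the guanine-over-cytosine offsets TOB1 was at 0.86 (adjusted p = 0.00049) and TOB2 at -0.39 (0.0823). The remaining deadenylases did not pass: PAN2, the catalytic subunit of the PAN2-PAN3 complex, was at 0.02, PAN3, its RNA-binding partner, at -0.17, and PARN, a poly(A)-specific ribonuclease, at -0.07.

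**Figure D2:**
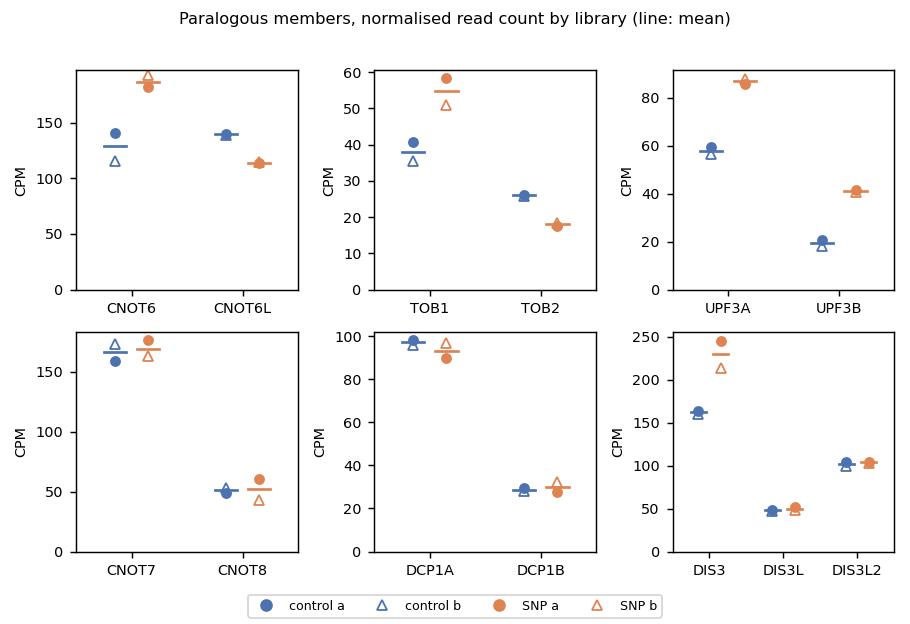
Normalised read counts (CPM, y axes from 0) of the paralogous members in each library, with control in blue and SNP in orange, replicate a as filled circles, replicate b as open triangles and the group mean as a line. CNOT6 and TOB1 rise while CNOT6L and TOB2 fall, UPF3A and UPF3B both rise, and DIS3 rises while DIS3L and DIS3L2, at 0.06 and 0.03 on the log2 scale, do not pass the test.

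In the exosome and SKI complexes 3 of 14 members (21.4%) rose and none fell, against 13.6% of all genes higher and 12.6% lower. In either direction 26.2% of all genes passed. The exosome is a barrel of inactive ring and cap subunits that threads RNA to the nucleases DIS3 and EXOSC10, and the SKI complex unwinds mRNA into it in the cytoplasm. DIS3 (ENSG00000083520, chr13:72752169-72782096, minus strand), the 3'-5' exonuclease and endonuclease at the base of the barrel, had 164 and 160 CPM in control and 245 and 214 CPM in SNP. It rose 1.42-fold (log2 fold change 0.50, SE 0.102, edgeR adjusted p = 0.00098), and this call held without any 1 library and with the guanine-over-cytosine offsets (0.30, adjusted p = 0.0114). Its paralogues did not pass: DIS3L, a cytoplasmic exosome nuclease, had 48.9 and 46.9 CPM in control and 51.7 and 48.2 CPM in SNP (0.06, SE 0.129), and DIS3L2, which degrades uridylated RNA without the exosome, had 104 and 99.4 CPM in control and 104 and 103 CPM in SNP (0.03, SE 0.107). The ratio of DIS3 to DIS3L CPM was 3.35 and 3.42 in control and 4.73 and 4.44 in SNP. The other exosome nuclease gene, EXOSC10, was at -0.10 (edgeR adjusted p = 0.563), and the ratio of DIS3 to EXOSC10 CPM was 1.86 and 1.56 in control and 2.75 and 2.41 in SNP. DIS3 shares 1180 exonic bases with BORA on the other strand.

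Of the 8 ring and cap genes of the exosome, EXOSC3 alone passed. EXOSC3 (ENSG00000107371, chr9:37766978-37801437, minus strand), a cap subunit with RNA-binding domains, had 36.4 and 50.1 CPM in control and 70.6 and 58.2 CPM in SNP. The libraries of each group lay apart, though without overlap between groups, and the log2 fold change was 0.58 (SE 0.149, edgeR adjusted p = 0.00614). The call was lost without control a (adjusted p = 0.182), and with the guanine-over-cytosine offsets the value was 0.05 (adjusted p = 0.829). EXOSC5, a ring subunit and one of the members with the fewest counts, had 9.1 and 14.4 CPM in control and 6.8 and 8.04 CPM in SNP. Its log2 fold change of -0.65 was the lowest of all members, but with an SE of 0.267 it did not pass (edgeR adjusted p = 0.0755). EXOSC4, another ring subunit, had 9.41 and 9.59 CPM in control and 11.6 and 12.2 CPM in SNP, a log2 fold change of 0.32 (SE 0.23, edgeR adjusted p = 0.326). EXOSC1, EXOSC2, EXOSC7, EXOSC8 and EXOSC9 lay between -0.21 and 0.18 and did not pass. The 8 subunits are present in equal number in the protein complex, and their log2 fold changes ran from -0.65 to 0.58 with a median of 0.02. In the SKI complex TTC37 (ENSG00000198677, chr5:95461755-95555007, minus strand), the scaffold, had 163 and 148 CPM in control and 206 and 185 CPM in SNP, a rise of 0.33 on the log2 scale (SE 0.103, edgeR adjusted p = 0.0213). SKIV2L, its helicase, had 53.5 and 62.3 CPM in control and 58.0 and 58.3 CPM in SNP (0.01, edgeR adjusted p = 0.966). The TTC37 call was lost without control a (adjusted p = 0.0545), control b (0.241) or SNP a (0.102), and its direction was -0.01 with the guanine-over-cytosine offsets (adjusted p = 0.927). Of the 14 exosome and SKI members, 2 passed without control a, EXOSC5 downward among them.

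Decapping and 5'-3' decay held XRN2 and EDC3 as rising genes. Of 11 members 2 (18.2%) rose and none fell, with a median log2 fold change of 0.18. Among all genes 13.6% rose and 12.6% fell, and 26.2% passed in either direction. XRN2 (ENSG00000088930, chr20:21303304-21389827, plus strand), the nuclear 5'-3' exonuclease that also acts in transcription termination, had 161 and 149 CPM in control and 206 and 175 CPM in SNP, a log2 fold change of 0.29 (SE 0.106, edgeR adjusted p = 0.045). EDC3 (ENSG00000179151, chr15:74630558-74696292, minus strand), an enhancer of decapping that binds DCP2 and DDX6, had 75.6 and 74.4 CPM in control and 96.0 and 90.6 CPM in SNP, a log2 fold change of 0.32 (SE 0.112, edgeR adjusted p = 0.0413). Both calls lie near the threshold: that of XRN2 was lost without control a (adjusted p = 0.0984), control b (0.31) or SNP a (0.281), and that of EDC3 without control a (0.196), control b (0.236) or SNP a (0.107). Neither passed with the guanine-over-cytosine offsets (0.09 and 0.14, adjusted p = 0.445 and 0.269) or in DESeq2's Wald test (adjusted p = 0.0836 and 0.104). EDC3 shares 701 exonic bases with CLK3 on the other strand. The catalytic genes of the pathway did not pass. XRN1, the cytoplasmic 5'-3' exonuclease, had 164 and 160 CPM in control and 192 and 176 CPM in SNP (0.18, SE 0.1, edgeR adjusted p = 0.188), and DCP2, the decapping enzyme, had 250 and 223 CPM in control and 292 and 244 CPM in SNP (0.18, SE 0.105, edgeR adjusted p = 0.226). In XRN1 the groups did not overlap, in DCP2 they did. LSM1, which defines the cytoplasmic LSM ring, had 10.6 and 9.05 CPM in control and 12.6 and 11.5 CPM in SNP, and its log2 fold change of 0.29 had an SE of 0.23 (edgeR adjusted p = 0.385). LSM14A, a decapping activator of processing bodies, had 114 and 108 CPM in control and 132 and 122 CPM in SNP, without overlap, and was at 0.19 (SE 0.106, edgeR adjusted p = 0.196). DDX6, the RNA helicase of processing bodies, was at 0.11, PATL1, a scaffold that joins the LSM ring to decapping, at 0.02, and EDC4, the scaffold of the decapping complex, at -0.01. The decapping cofactor paralogues DCP1A and DCP1B were at -0.06 and 0.07, with a ratio of 3.35 and 3.42 in control and 3.25 and 2.98 in SNP. Without SNP b, DCP2 passed as well and the count was 3.

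Neither gene of no-go decay passed. PELO, which enters the empty decoding site of a stalled ribosome, had 48.4 and 50.4 CPM in control and 43.3 and 43.8 CPM in SNP, and HBS1L, its GTPase partner, had 101 and 94.8 CPM in control and 111 and 120 CPM in SNP. The groups did not overlap in either gene, with PELO lower and HBS1L higher in SNP. Their log2 fold changes were -0.18 (SE 0.13, edgeR adjusted p = 0.328) and 0.23 (SE 0.108, edgeR adjusted p = 0.119).

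**Figure D3:**
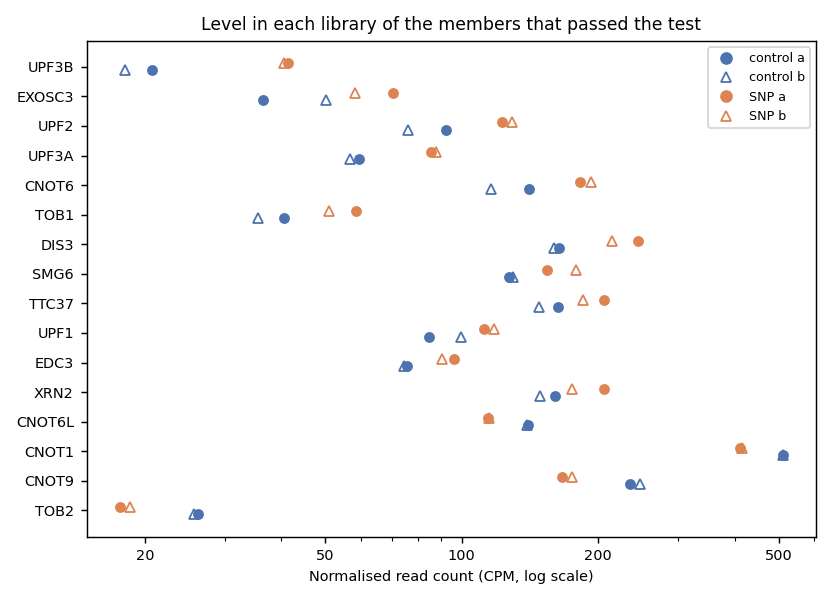
Normalised read count (CPM, log scale on the x axis) in each library of the 16 members that passed the test, ordered by log2 fold change, with control in blue, SNP in orange, replicate a filled and replicate b open. In each gene both SNP values lie on 1 side of both control values, with narrow gaps for XRN2, from 161 to 175 CPM, and UPF1, from 99.8 to 112 CPM.

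Levels per annotated length differed widely between the subunits of one complex. The gene lengths behind the deposited values equalled the merged exons of all annotated transcripts in 89.9% to 90.0% of counted genes. They are not the lengths of the transcripts expressed here, so ranks between genes are approximate. Per length, on the TPM scale and as control means, the highest members were CNOT1 at 222, CNOT9 at 214, XRN2 at 212, SMG5 at 195 and DDX6 at 156 TPM. The lowest were SMG9 at 24.8, EXOSC7 at 25.2, TOB2 at 26.8, LSM1 at 27.4 and PAN2 at 28.1 TPM. UPF3B, at 29.6 TPM in control the lowest of the UPF genes, reached 68.0 TPM in SNP, beside 50.4 and 68.2 TPM for UPF1, 66.9 and 109 TPM for UPF2 and 47.3 and 76.9 TPM for UPF3A. In SNP, UPF1 and UPF3B thus stood at nearly the same level on this scale, which rests on annotated lengths. CNOT9, which stood beside CNOT1 in control, was at 165 TPM in SNP against 195 TPM for CNOT1.

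The changes of the members were related to the base composition of their transcripts. Guanine minus cytosine content was taken as the difference between the shares of the 2 bases over all annotated transcripts of a gene, in percentage points. Its Spearman correlation with the log2 fold change was 0.593 across the 52 members and 0.480 across 14724 genes; genes of these libraries share depth and preparation and are not independent, so these are descriptions. Within SNP, the log2 ratio of library b over a had a correlation of -0.437 over the members and -0.314 over all genes, and within control -0.15 and -0.033. Members with a high guanine minus cytosine content carried most of the rises. All genes were ranked on this difference and divided into 3 classes of 4908. Of the 23 members in the upper class (at least 2.1 points), 10 rose and none fell, with a median log2 fold change of 0.29. Among all genes of that class 28.4% rose and 2.73% fell, with a median of 0.23. Of the 14 members in the lower class (below -0.12 points), 2 rose, TOB1 and SMG6, and 2 fell, TOB2 and CNOT1, with a median of -0.09; among all genes there 3.4% rose and 26.5% fell, with a median of -0.27. In the middle class of 15 members none rose and CNOT6L and CNOT9 fell. TOB1 and SMG6 thus rose in a class of genes where falls were the more frequent, at -1.83 and -0.87 points.

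UPF3B, at 8.63 points, lay at percentile 99.6 of all genes, followed among the members that passed by UPF3A at 7.12 and EXOSC3 at 7.09 points. Also at this end were EXOSC4 at 8.17, EXOSC7 at 6.12 and EXOSC2 at 5.21 points, which did not pass. Their log2 fold changes were 0.32, -0.0007 and 0.04. At the other end stood CNOT3 at -6.7 and PATL1 at -4.79 points, neither of which passed. To show what such an excess looks like in the transcript, the 60 coding bases within 1 exon with the largest excess are printed for UPF3B, UPF3A, CNOT3 and PATL1 from GENCODE 29 (GRCh38), read in the transcript with the longest coding sequence. Capitals mark guanine in UPF3B (chrX:119841182-119841241, minus strand, exon 7 of 11) and UPF3A (chr13:114301864-114301923, plus strand, exon 9 of 10), and cytosine in CNOT3 (chr19:54152873-54152932, plus strand, exon 15 of 17) and PATL1 (chr11:59655533-59655592, minus strand, exon 8 of 19).
UPF3B: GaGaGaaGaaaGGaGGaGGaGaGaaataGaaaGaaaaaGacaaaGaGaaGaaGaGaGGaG
UPF3A: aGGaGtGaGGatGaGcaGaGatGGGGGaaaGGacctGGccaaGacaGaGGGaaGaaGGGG
CNOT3: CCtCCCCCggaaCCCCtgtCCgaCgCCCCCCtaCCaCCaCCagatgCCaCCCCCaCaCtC
PATL1: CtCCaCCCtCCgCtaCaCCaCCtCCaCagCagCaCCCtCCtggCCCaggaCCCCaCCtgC
The UPF3B stretch has 23 guanines and 1 cytosine and the UPF3A stretch 29 and 6. The CNOT3 stretch has 7 guanines and 36 cytosines, and the PATL1 stretch 8 and 34. Over the whole coding sequence guanine and cytosine made up 26.5% and 15.5% of the bases in UPF3B and 32.1% and 21.0% in UPF3A. They made up 27.2% and 33.2% in CNOT3 and 23.5% and 25.8% in PATL1, so the printed stretches are extremes of their genes.

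**Figure D4:**
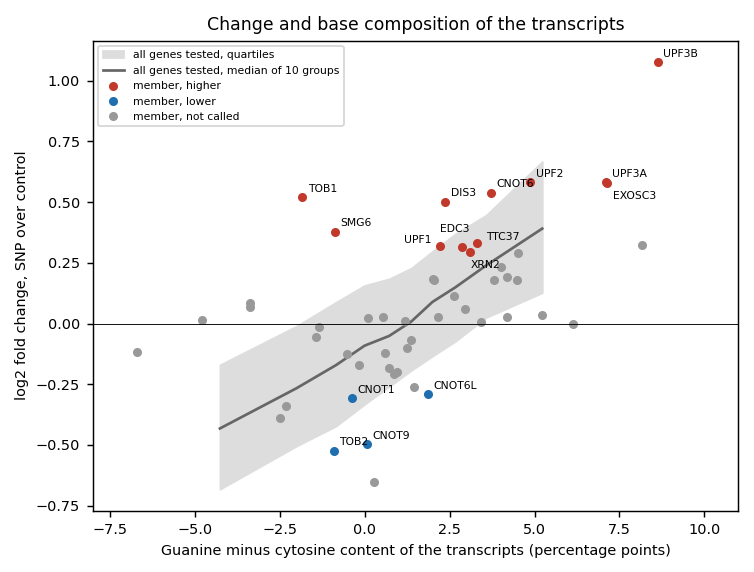
Guanine minus cytosine content of the annotated transcripts (x axis, percentage points) against the log2 fold change of SNP over control (y axis) for the 52 members, coloured by the test, over the median (line) and quartiles (shaded) of all genes tested in 10 groups of equal size. UPF3A and EXOSC3, near 7 points, coincide at 0.58; TOB1, SMG6 and DIS3 are among the members above the shaded band, and CNOT6L, CNOT9 and TOB2 among those below it.

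Offsets fitted in each library on length, GC content and the ratio of guanine to cytosine took this relation from 0.593 to -0.223 over the members and from 0.480 to -0.004 over all genes. With them 11 members (21.2%) passed, 6 higher and 5 lower, and among all genes 19.1% passed, 8.56% higher and 10.5% lower. The members' share was thus again near that of all genes, which fell from 3861 to 2812 called. Of the 11 members, 6 had passed before in the same direction: CNOT1, CNOT6L, CNOT9, TOB1, SMG6 and DIS3. The other 10 of the earlier 16 did not pass, all 4 UPF genes among them. In turn DCP1B at 0.43 (edgeR adjusted p = 0.0428), PATL1 at 0.48 (0.00692) and CNOT4 at 0.45 (0.00423) passed upward, and CNOT10 at -0.32 (0.0175) and EXOSC2 at -0.33 (0.0173) downward. The first 3 have between -4.79 and -3.37 points of guanine minus cytosine, and EXOSC2 has 5.21.

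**Figure D5:**
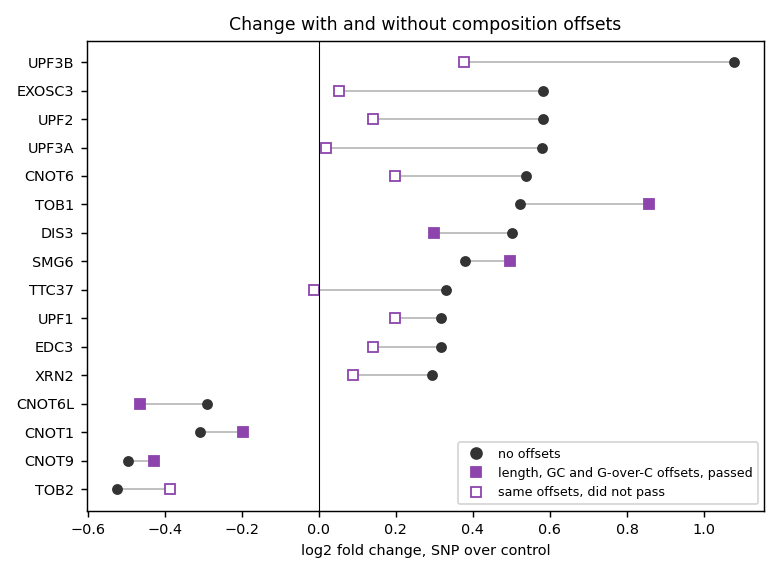
Log2 fold change of SNP over control (x axis) of the 16 members that passed, without offsets (black circles) and with offsets on length, GC content and the guanine-to-cytosine ratio (purple squares, filled where the test was passed). UPF3A moves from 0.58 to 0.02 and UPF2 from 0.58 to 0.14, while TOB1 moves from 0.52 to 0.86 and CNOT9 only from -0.50 to -0.43.

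Exons of 30 members share bases with another annotated gene, and 7 of these passed. Of the 22 members without shared exonic bases 9 passed, namely the 4 UPF genes, CNOT6, CNOT6L, CNOT9, TOB2 and TTC37. When only genes without shared exonic bases were tested, 10 of these 22 members (45.5%) passed, against 27.9% of 7241 genes. Apart from the copies of SMG1, 15 annotated pseudogenes of members had 0 to 5 counts per library in sum.

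Other genes of the pathways were read from 6 further lists. Of 70 such genes, all of them tested, 23 passed (32.9%), 18 higher (25.7%) and 5 lower (7.14%), against 26.2%, 13.6% and 12.6% of all genes, and their median log2 fold change was 0.07. The number that passed was 17 without control a, 15 without control b, 17 without SNP a, 27 without SNP b, 14 in DESeq2's Wald test and 16 with the guanine-over-cytosine offsets.

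The ribosome collision and rescue factors take part in the handling of stalled ribosomes. Of these 9 genes 4 (44.4%) were higher and none lower, against 13.6% and 12.6% of all genes. ASCC3, the helicase that pulls collided ribosomes apart, had 166 and 175 CPM in control and 341 and 359 CPM in SNP. The rise was 2.05-fold, a log2 fold change of 1.04 (SE 0.0961, edgeR adjusted p = 1.9e-07), and it was 0.69 with the guanine-over-cytosine offsets (adjusted p = 0.0003). GTPBP2, a partner of PELO in ribosome rescue, had 52.9 and 57.7 CPM in control and 77.8 and 85.6 CPM in SNP, a rise of 0.56 (SE 0.12, edgeR adjusted p = 0.00153). Both calls held without any 1 library. NEMF, which marks peptides of stalled ribosomes, and ABCE1, which splits ribosomes, were the other 2 that passed. With the guanine-over-cytosine offsets NEMF was at 0.05 (adjusted p = 0.667) and ABCE1 at 0.12 (0.319), and 2 genes of the list were higher and 1 lower. The ABCE1 call was also lost without control a (adjusted p = 0.142), control b (0.234) or SNP a (0.272).

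Among the decapping partners and LSM genes 5 of 14 rose (35.7%) and 3 fell (21.4%), against 13.6% and 12.6% of all genes. NUDT16, a second decapping enzyme, had 18.2 and 14.6 CPM in control and 45.8 and 34.0 CPM in SNP (log2 fold change 1.28, SE 0.182, edgeR adjusted p = 3.5e-05). LSM14B had 38.6 and 44.4 CPM in control and 68.4 and 55.0 CPM in SNP (0.58, SE 0.139, edgeR adjusted p = 0.00416). LSM2, a ring subunit, had 9.87 and 11.5 CPM in control and 5.79 and 3.76 CPM in SNP (-1.16, SE 0.289, edgeR adjusted p = 0.00526), and DCPS, the scavenger that hydrolyses the cap left after 3'-5' decay, had 12.6 and 14 CPM in control and 6.17 and 8.17 CPM in SNP (-0.89, SE 0.246, edgeR adjusted p = 0.0102). The list thus held NUDT16 at 2.43-fold of control and LSM2 at 0.449-fold. The calls of LSM2 and NUDT16 held without any 1 library; LSM14B was lost without control a (adjusted p = 0.0712), and DCPS without control b (0.0608) or SNP a (0.072). Over this list 4 genes passed without control b. The guanine-over-cytosine offsets left 3 higher and 1 lower, and LSM2 was at -0.81 and did not pass (adjusted p = 0.0619).

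Of 8 deadenylation adaptors, poly(A)-binding proteins and terminal uridylyltransferases, 4 (50%) rose and none fell, against 13.6% and 12.6% of all genes. BTG2, of the same antiproliferative family as TOB1, had 20.2 and 16.0 CPM in control and 35.9 and 40.3 CPM in SNP (log2 fold change 1.07, SE 0.169, edgeR adjusted p = 9e-05). PABPN1, the nuclear poly(A)-binding protein, had 66.6 and 56.1 CPM in control and 130 and 101 CPM in SNP (0.91, SE 0.131, edgeR adjusted p = 4e-05). Both calls held without any 1 library and with the guanine-over-cytosine offsets (1.37 and 0.58, adjusted p = 0.00013 and 0.00594). The terminal uridylyltransferases ZCCHC11 and ZCCHC6, which add uridines to shortened tails, were also higher, at 0.50 (edgeR adjusted p = 0.0011) and 0.41 (0.0264). The ZCCHC6 call was lost without control b (adjusted p = 0.352) or SNP a (0.109) and with the guanine-over-cytosine offsets (0.06, adjusted p = 0.726). Of the 18 sequence-specific decay factors 3 passed (16.7%, below the 26.2% of all genes), 2 higher and 1 lower: ZFP36L1 had 1.85 and 2.13 CPM in control and 5.29 and 4.8 CPM in SNP (1.34, SE 0.401, edgeR adjusted p = 0.0171), HNRNPD had 166 and 164 CPM in control and 326 and 262 CPM in SNP (0.83, SE 0.108, edgeR adjusted p = 1.2e-05), and ZFP36L2 had 53.8 and 52.4 CPM in control and 29.7 and 32.7 CPM in SNP (-0.77, SE 0.137, edgeR adjusted p = 0.00031). ZFP36L1 and ZFP36L2 are related binders of AU-rich elements; with the guanine-over-cytosine offsets ZFP36L1 was at 1.82 (adjusted p = 0.00545), and ZFP36L2 at -0.32 did not pass (0.0621). The ZFP36L1 call was lost without control a (adjusted p = 0.0907) or SNP a (0.0947), and HNRNPD, at 9.1 points of guanine minus cytosine, was at 0.08 with these offsets (adjusted p = 0.491).

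In the exon junction complex and NMD partners 2 of 11 passed (18.2%, below the 26.2% of all genes): 1 rose, RBM8A, a core subunit of the junction complex (0.52, SE 0.103, edgeR adjusted p = 0.00082), and 1 fell, RNPS1, a peripheral one (-0.28, SE 0.0989, edgeR adjusted p = 0.0417). RBM8A had 163 and 162 CPM in control and 250 and 215 CPM in SNP, and RNPS1 had 209 and 227 CPM in control and 174 and 184 CPM in SNP. RNPS1 did not pass without control a (adjusted p = 0.0991), control b (0.345) or SNP a (0.121), and without SNP b 4 genes of this list passed. Neither RBM8A (0.11, adjusted p = 0.285) nor RNPS1 (-0.11, adjusted p = 0.309) passed with the guanine-over-cytosine offsets. Of 10 nuclear exosome adaptors and the SKI partner, 2 (20%) rose and none fell, against 13.6% and 12.6% of all genes. They were MPHOSPH6, an exosome cofactor, at 0.74 (SE 0.24, edgeR adjusted p = 0.026) and RBM7, of the nuclear exosome targeting complex, at 0.48 (SE 0.172, edgeR adjusted p = 0.0443). MPHOSPH6 had 7.09 and 10.5 CPM in control and 15.9 and 13.4 CPM in SNP, and RBM7 had 17.9 and 19.5 CPM in control and 27.2 and 24.9 CPM in SNP. Neither passed without control a (adjusted p = 0.302 and 0.267) or SNP a (0.135 and 0.139), and RBM7 did not pass without control b (0.122). The same offsets put them at 0.11 and 0.43, and neither passed (adjusted p = 0.78 and 0.0595).

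Transcripts that NMD is known to degrade were read from a list of 13, of which 12 had enough counts to be tested. Of these 5 (41.7%) were higher and none lower, against 13.6% and 12.6% of all genes, with a median log2 fold change of 0.27. With the guanine-over-cytosine offsets 4 were higher and the median was 0.10; GAS5 was then at 0.04 and did not pass (adjusted p = 0.797). GADD45A, a stress-response gene whose mRNA is an NMD target, had 3.08 and 4.26 CPM in control and 22.8 and 21.9 CPM in SNP, a 6.11-fold rise (log2 fold change 2.61, SE 0.247, edgeR adjusted p = 2.7e-07). ATF3, a stress-induced transcription factor gene, had 1.85 and 3.02 CPM in control and 6.92 and 4.41 CPM in SNP (1.23, SE 0.4, edgeR adjusted p = 0.0269). The other 3 were the small nucleolar RNA host transcripts GAS5, SNHG1 and SNHG15. The GADD45A call held without any 1 library, but GADD45A alone passed without control a, and GADD45A and SNHG15 without SNP a; ATF3 was then at an adjusted p of 0.186 and 0.27. DESeq2's Wald test called 3 of them. RNA stability was not measured in these libraries.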

How the data were processed

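RNA of 2 control and 2 SNP libraries was sequenced with 75 bp reads on an Illumina platform per the labels' protocols; the genome build was GRCh38 per the submitters' processing notes, and the aligner, counter, annotation and use of strand are not given in the sources used here. Each deposited table gives read counts, TPM and RPKM per gene. The deposited counts were tested, the TPM values deposited by the authors served for levels per length, and the deposited RPKM values only for a check of gene lengths, which equalled GENCODE 29 lengths (within a relative 0.001) in 89.9% to 90.0% of counted genes. The total counts of 5613144 to 8056550 per library limit precision, and floors cover counting error only.

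Genes were filtered with edgeR's filterByExpr (minimum count 10, minimum total 15), scaled by TMM (factors 0.989 to 1.01) and tested with the quasi-likelihood F test of edgeR 4.0.16 in R 4.3.3, p-values adjusted by Benjamini-Hochberg over 14759 genes and a threshold of 0.05. CPM values are TMM-normalised, and SE is the standard error of the log2 fold change. The procedure was tested on simulated data that held no relation between change and base composition. The biological coefficient of variation was 0.0869. DESeq2 1.42.0, limma 3.58.1 (voom), other filters and scalings, the replicate letter as a block, lowess offsets (span 0.5, 3 passes) on length, GC and guanine over cytosine, genes without shared exonic bases, a threshold of 0.01 and leaving out each library were alternatives. Positions and base composition came from GENCODE 29, with a value for 99.8% of the genes tested, and promoters from RefSeq. The members and lists were chosen with earlier results of these data known. All members that passed are given with their values; of those that did not, the 2 with the largest change per role are; of each further list, up to 2 of the called genes with the largest rises and 2 with the largest falls are given with values; paralogue pairs are given whatever their values.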

Additional observations from a re-analysis of the deposited data

How the results depend on the processing

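Beside the 16 members that passed, the count was 10 when only genes without shared exonic bases were tested (22 members; 9 of the 16, with SMG9 added), 8 at an adjusted p under 0.01 and 6 to 16 when 1 library was left out; DESeq2's size factors, total counts and limma-voom left the call of each of the 52 members as it was. For the 23 other decay genes the counts were 14 with DESeq2's Wald test, 13 without shared exonic bases, 14 at 0.01 and 15 to 27 with 1 library left out. For the 5 NMD substrates they were 3, 2, 1 and 1 to 5 in the same order. For the 3861 of all genes they were 2415, 2018, 2224 and 2471 to 4096. Without shared exonic bases fewer genes were tested, namely 38 other decay genes, 5 NMD substrates and 7241 of all genes. Of these 34.2%, 40.0% and 27.9% passed, against 32.9%, 41.7% and 26.2% when genes with shared bases were included. Among members that passed with or without the guanine-over-cytosine offsets, TTC37 changed sign to -0.012 with them and EXOSC2 to -0.33, the latter passing. Members that passed in neither fit changed sign as well, such as XRN1 (0.18 to -0.01) and DCP2 (0.18 to -0.21). Of the 36 members that did not pass, 9 passed in at least 1 alternative and 26 changed sign in at least 1. DESeq2's test called 11 members and lost XRN2, EDC3, CNOT6L, TOB2 and UPF1. Samples with the same letter did not deviate together (correlation 0.050 of the a minus b deviations), and nothing in the labels ties the letters to shared experiments. With the letter as a replicate block 17 members passed, 12 higher and 5 lower, with SMG9 added, as did 27 other decay genes, 5 NMD substrates and 4487 of all genes; with the block, length and GC offsets 16 members passed. Each count rests on 2 libraries per group, and members near 10 CPM, such as LSM1, EXOSC4 and EXOSC5, had standard errors above 0.2, so changes of the size seen in UPF1 were not detectable in them.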
